A study of Mus musculus with 5 samples.

Results

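The 9 genes Foxp3, Ikzf2, Ikzf4, Izumo1r, Il10, Areg, Ebi3, Rln3 and Cd83 are described here in T cells taken from mouse mammary tumors. They were chosen by name, as genes linked to regulatory T cells, and each was 1 of 32285 features in the count matrices of both T cell libraries. Their levels were read in cells with a Foxp3 UMI, which will be called Foxp3+ cells, and set against CD4+ cells without Foxp3 and against CD8+ cells, separately in each library. A UMI is a molecular tag that lets each captured transcript be counted once. Since Foxp3 defined the Foxp3+ cells, its level in the 3 classes was fixed by the gate, and its level in Foxp3+ cells depends on the gate too, so both are given as a description and enter no count.

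The tumors were grown from 4T1 cells, a BALB/c mammary carcinoma line, in the mammary fat pad of female BALB/c mice that were 12 weeks old, and the series names the line 4T1-Th1.1. All mice of both T cell libraries received doxorubicin, a chemotherapy drug, at 5 mg/kg intravenously in 3 doses given 3 days apart. Tumors that responded gave the library T cells sensitive and tumors that did not gave T cells resistant. T cells were enriched by magnetic depletion of other cells, several tumors were pooled, and each pool gave 1 library, so every difference between sensitive and resistant compares 2 libraries and has no replicate check. Response to the drug, tumor pool and library cannot be told apart. Intervals are exact 95% Poisson or binomial intervals and cover counting error only.

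Regulatory T cells restrain other lymphocytes, and Foxp3 is the forkhead transcription factor that defines their lineage. Ikzf2 (Helios) and Ikzf4 (Eos) are Ikaros family transcription factors that act with Foxp3. Izumo1r encodes folate receptor 4, a surface protein found on regulatory and on chronically stimulated CD4 T cells, and Cd83 encodes a surface protein best known from mature dendritic cells. Il10 encodes a suppressive cytokine, and Ebi3 encodes a cytokine subunit that pairs with other subunits to form IL-27 or IL-35. Areg encodes amphiregin, a ligand of the EGF receptor that regulatory T cells release in tissue repair, and Rln3 encodes relaxin-3, a hormone of the relaxin family best known as a neuropeptide.

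The gene bodies lie, in the GENCODE annotation of GRCm38, at chrX:7573644-7595245 on the plus strand for Foxp3 (ENSMUSG00000039521), chr1:69531214-69687245 on the minus strand for Ikzf2 (ENSMUSG00000025997) and chr10:128630843-128645991 on the minus strand for Ikzf4 (ENSMUSG00000002578). Izumo1r (ENSMUSG00000031933) lies at chr9:14885814-14903949 on the minus strand and Cd83 (ENSMUSG00000015396) at chr13:43784775-43803132 on the plus strand. Il10 (ENSMUSG00000016529) lies at chr1:131019845-131024974, Areg (ENSMUSG00000029378) at chr5:91139599-91148432 and Ebi3 (ENSMUSG00000003206) at chr17:55952640-55957022, all on the plus strand, and Rln3 (ENSMUSG00000045232) lies at chr8:84042929-84045000 on the minus strand. Foxp3 overlaps the noncoding gene Flicr on its own strand, and Ikzf2 overlaps Gm29112 and Gm28112 on its own strand, so reads there could be shared. The annotation lists no overlapping gene for Izumo1r, Il10, Areg, Rln3 or Cd83.

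RefSeq promoter windows (GRCm38.p6) were found for 5 of the 9 genes, namely Foxp3, Izumo1r, Areg, Ebi3 and Rln3. Those of Foxp3, Izumo1r and Rln3 are shown because, of the 9 genes, these had the largest shares of their UMIs in Foxp3+ cells, in both libraries. Each sequence reads 5′ to 3′ on the gene's strand and stops where an annotated UTR begins. The first Foxp3 window is chrX:7579426-7579566 and the second is chrX:7580233-7580482, and both lie inside the annotated gene body. The Izumo1r window is chr9:14903950-14904017 and the Rln3 window is chr8:84045001-84045229. Capitals mark matches to the motifs searched.
Foxp3 first window: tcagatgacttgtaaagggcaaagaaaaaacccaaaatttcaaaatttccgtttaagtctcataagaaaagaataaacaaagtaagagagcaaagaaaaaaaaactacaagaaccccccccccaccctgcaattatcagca
Foxp3 second window: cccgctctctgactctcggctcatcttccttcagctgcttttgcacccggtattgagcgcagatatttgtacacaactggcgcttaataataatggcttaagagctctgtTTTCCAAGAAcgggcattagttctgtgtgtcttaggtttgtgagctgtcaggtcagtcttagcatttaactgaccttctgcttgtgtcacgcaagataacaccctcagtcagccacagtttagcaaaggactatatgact
Izumo1r: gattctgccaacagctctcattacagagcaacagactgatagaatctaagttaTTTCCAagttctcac
Rln3: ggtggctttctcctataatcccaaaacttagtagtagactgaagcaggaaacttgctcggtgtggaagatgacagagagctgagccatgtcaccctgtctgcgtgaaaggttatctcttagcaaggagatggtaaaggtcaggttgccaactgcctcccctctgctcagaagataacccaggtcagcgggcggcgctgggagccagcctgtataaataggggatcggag

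Both strands of the 250 bases before each start were searched for 4 motifs: forkhead (TGTTTAC), STAT (TTCNNNGAA), AP-1 (TGANTCA) and NFAT (TGGAAA). The second Foxp3 window held a STAT match that overlaps an NFAT match on the minus strand, and the Izumo1r window held an NFAT match on the minus strand. The Rln3 window and the first Foxp3 window held none of the 4. Of 32851 RefSeq windows of this length, 3.17% held the forkhead letters, 7.02% the STAT letters, 6.75% the AP-1 letters and 18.6% the NFAT letters. A match describes the sequence only.

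After filtering, 3448 sensitive and 3091 resistant cells remained. Of the resistant library's barcodes, 45.7% exceeded the limit of 10% mitochondrial UMIs, against 5.90% in the sensitive library. The libraries shared 31 barcodes, of which 17 were kept in both, and 1 Foxp3+ cell, in the resistant library, carried such a barcode. T cells, meaning cells of T cell clusters with a Cd3d, Cd3e or Cd3g UMI, numbered 1896 (sensitive) and 1792 (resistant). T cell clusters of 703 and 270 cells were led mostly by immunoglobulin genes, while 99.6% and 98.5% of their cells held such a UMI. The median of UMIs per cell was 5502.5 in Foxp3+, 4016 in CD4+ and 4000 in CD8+ cells of the sensitive library, and 4751, 2947 and 4588 in those of the resistant library.

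Foxp3 was found in 100 of 1896 T cells of the sensitive library (5.27%, 4.31 to 6.38) and in 33 of 1792 of the resistant library (1.84%, 1.27 to 2.58). With every cell thinned to 1000 UMIs before gating, the shares were 1.96% (1.38 to 2.70) and 0.458% (0.198 to 0.900), a ratio of 4.28 (1.996 to 9.19). The ratio without thinning was 2.86 (1.94 to 4.22). With thinning it was 10.5 (1.35 to 81.0) when 2 Foxp3 UMIs were required, and 1.90 (0.173 to 21.0) when Foxp3+ cells had to hold Cd4 and no CD8 transcripts, an interval that includes 1. Of the Foxp3+ cells, 65 of 100 and 18 of 33 held at least 2 Foxp3 UMIs, and the highest counts in a single cell were 10 and 6. Fibroblast-like cells, which should lack Foxp3, had a Foxp3 UMI in 0 of 830 cells of the sensitive library, which allows a share of up to 0.361% counted as 3 cells (exact upper limit 0.443%), and in 1 of 614 cells (0.163%) of the resistant library. Their median depths were 13409 and 13699 UMIs, so the Foxp3 shares of T cells lay above this background at a lower depth.

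Other genes of regulatory T cells were present in the Foxp3+ cells. In the sensitive library, 86 of the 100 held a Ctla4 UMI, 94 a Tnfrsf4 UMI, 90 a Tnfrsf18 UMI and 74 an Il2ra UMI, and in the resistant library 28, 29, 31 and 14 of the 33 did. All 8 T cell markers were above 0 in both libraries, which the gate largely set. It required a UMI of Cd3d, Cd3e or Cd3g, which are among the 8, and the list also served to name the clusters. Of the fixed lists for other cell types, 1 of 6 neutrophil markers and 7 of 8 macrophage or monocyte markers were above 0 in the sensitive library with summed levels of 1.4999 and 84.0 CPM (counts per 1000000 UMIs of the class), and 2 of 6 and 6 of 8 in the resistant library with 15.8 and 142 CPM. The dendritic list summed to 210 and 147 CPM in Foxp3+ cells, nearly all of it Ccr7, which T cells also express, and the B cell list to 75.0 and 99.8 CPM, mostly Ighm. In the CD4+ class of the sensitive library the B cell list reached 1416 CPM, of which Ighm made up 1379 CPM, and the mast cell list 408 CPM, against 17.2 and 11.5 CPM in that of the resistant library. Of the mast cell list, 2 of 6 markers were above 0 in the sensitive CD4+ class. Cyp11a1 made up 239 CPM, and Cpa3, Ms4a2, Fcer1a and Gata2 were at 0. The neutrophil list reached 167 CPM in the CD4+ class of the resistant library, of which S100a9 made up 126 CPM, against 1.05 CPM in that of the sensitive library. The NK cell list, with 4 of 6 and 2 of 6 markers above 0, summed to 1971 and 2016 CPM in Foxp3+ cells, against 483 and 845 CPM in CD4+ and 4139 and 3286 CPM in CD8+ cells, nearly all of it Nkg7, which CD8 T cells also express. The NK cell receptor genes Klrb1c and Klra8 and the genes Adgre1, Cxcr2 and Retnlg were at 0 in the Foxp3+ cells of both libraries. The part of these cells in the results was not tested.

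Many Foxp3+ cells also held CD8 transcripts, which touches every comparison below. A Cd8a or Cd8b1 UMI was found in 53 of 100 Foxp3+ cells of the sensitive library (53.0%, 42.8 to 63.1) and in 22 of 33 of the resistant library (66.7%, 48.2 to 82.0), and at least 5 such UMIs in 44 and 18 cells. Among fibroblast-like cells 4.10% and 8.47% held a Cd8a or Cd8b1 UMI. A Cd4 UMI was found in 42 and 14 Foxp3+ cells, and only 21 and 7 had Cd4 without CD8 transcripts. Foxp3+ cells with CD8 transcripts had medians of 7084 and 6635.5 UMIs, and those without had 2876 and 3637. Putative doublets had been removed before gating. The part of droplets that held more than 1 cell in these values was not tested, and ratios were also taken without the Foxp3+ cells that held CD8 transcripts.

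Of the 3 transcription factors, Foxp3 reached 451 CPM (402 to 505; 301 UMIs) in the Foxp3+ cells of the sensitive library and 368 CPM (287 to 464; 70 UMIs) in those of the resistant library, and these cells held 96.2% and 94.6% of all Foxp3 UMIs in the 2 libraries. The remaining Foxp3 UMIs lay in few cells outside the T cell classes. In the sensitive library 6 were in 1 dendritic-like cell, 3 in 1 endothelial-like cell and 1 each in 3 further cells, and the resistant library had 2 in 1 NK cell-like and 2 in 1 fibroblast-like cell.

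Ikzf2 (Helios) stood at 556 CPM (501 to 616) in Foxp3+, 28.4 CPM (18.7 to 41.3) in CD4+ and 55.1 CPM (49.4 to 61.3) in CD8+ cells of the sensitive library. Resistant tumors gave 452 CPM (361 to 558), 195 CPM (135 to 273) and 94.0 CPM (87.7 to 101). Foxp3+ cells were highest in both libraries, whereas CD4+ and CD8+ cells changed order between the libraries. Foxp3+ cells exceeded CD4+ cells 19.6 times (13.2 to 30.1) in sensitive and 2.31 times (1.54 to 3.55) in resistant tumors, the latter being 1.87 (1.18 to 3.05) in cells of at least 3000 UMIs and 3.83 (2.70 to 5.50) with a mitochondrial limit of 20%. Over CD8+ cells the ratio was 10.1 (8.70 to 11.7) and 4.81 (3.80 to 6.01). Ikzf2 was found in 91 of 100 and 27 of 33 Foxp3+ cells. After thinning, 41.2% of Foxp3+ cells held it in the sensitive library, against 0.578% of CD4+ and 4.19% of CD8+ cells, and in the resistant library the shares were 39.4%, 8.70% and 7.27%.

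The CD4+ class without Foxp3 was small in the resistant library, with 46 cells against 175 in the sensitive library. Of its 34 Ikzf2 UMIs there, 25 lay in 4 cells of the cluster led by Rln3, Foxp3 and Izumo1r, and in the sensitive library 20 of 27 lay in 8 such cells. Ikzf2 was itself among the genes that led that cluster, so this placement is a description only. That cluster held 81 of the 100 and 27 of the 33 Foxp3+ cells. With Foxp3+ cells of the sensitive library thinned to 1000 UMIs, 36 of 97 still held a Foxp3 UMI (37.1%). Thinning could only lower that share, since the gate gave every such cell a Foxp3 UMI. Whether CD4+ cells of that cluster held undetected Foxp3 was not tested.

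Ikzf4 (Eos) differed less between classes. It reached 78.0 CPM (58.2 to 102) in Foxp3+, 48.4 CPM (35.4 to 64.6) in CD4+ and 30.4 CPM (26.2 to 35.1) in CD8+ cells of the sensitive library, and 89.3 CPM (52.0 to 143), 80.5 CPM (44.0 to 135) and 33.1 CPM (29.4 to 37.1) in the resistant library. The intervals of Foxp3+ and CD4+ cells overlapped in both libraries. The ratio over CD4+ cells was 1.61 (1.06 to 2.45) and 1.11 (0.515 to 2.43), and the ratio over CD8+ cells was 2.57 (1.85 to 3.51) and 2.70 (1.55 to 4.399). CD8+ cells, far more numerous, held 47.1% and 77.7% of all Ikzf4 UMIs.

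Of the surface proteins, Izumo1r (folate receptor 4) followed the order Foxp3+, CD4+, CD8+ in both libraries. In the sensitive library it stood at 330 CPM (288 to 377), 121 CPM (99.9 to 145) and 18.0 CPM (14.8 to 21.7), and in the resistant library at 247 CPM (181 to 328), 132 CPM (83.8 to 198) and 6.34 CPM (4.79 to 8.23). Foxp3+ exceeded CD4+ cells 2.73 times (2.17 to 3.45) and 1.87 times (1.11 to 3.22), and exceeded CD8+ cells 18.3 times (14.5 to 23.2) and 38.9 times (25.8 to 58.4). CD8+ cells themselves differed between the libraries, with a ratio of sensitive over resistant of 2.84 (2.04 to 4.00), while CD4+ cells gave 0.915 (0.581 to 1.501).

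Cd83 was mostly a gene of other cells. Macrophage or monocyte-like cells held 52.7% (sensitive) and 62.7% (resistant) of its UMIs, and dendritic-like cells another 12.54% and 15.7%. In Foxp3+ cells it stood at 112 CPM (88.5 to 141) in the sensitive library and at 26.3 CPM (8.52 to 61.3; 5 UMIs) in the resistant library. CD4+ cells stood at 37.9 CPM (26.5 to 52.4) and 74.7 CPM (39.8 to 128), so Foxp3+ cells were the higher class among sensitive cells, 2.97 times above CD4+ cells (1.97 to 4.55). Among resistant cells the intervals of both classes overlapped, at a ratio of 0.351 (0.0981 to 1.05), which was 1.31 (0.312 to 4.26) without the Foxp3+ cells that held CD8 transcripts. The interval of that ratio excluded 1 in 3 other settings, at 0.219 (0.0401 to 0.798) with T cells taken by Ptprc and Cd3e UMIs in place of clusters, 0.264 (0.0990 to 0.601) with a mitochondrial limit of 20% and 0.324 (0.0903 to 0.967) without doublet removal. CD8+ cells were at 3.09 and 5.66 CPM, which Foxp3+ cells exceeded 36.4 times (21.8 to 63.9) and 4.64 times (1.44 to 11.6). The latter was 1.69 (0.343 to 5.12) when T cells were taken by Ptprc and Cd3e UMIs.

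Among the secreted products, Rln3 (relaxin-3) was the one whose UMIs lay mainly in Foxp3+ cells of the sensitive library, with 70.6% of 524 UMIs. It reached 555 CPM (500 to 614; 370 UMIs) there, against 18.9 CPM (11.2 to 29.9) in CD4+ and 7.31 CPM (5.33 to 9.78) in CD8+ cells, ratios of 29.3 (18.3 to 49.99) and 75.9 (55.6 to 106). In the resistant library Foxp3+ cells held 16 of 79 UMIs (84.0 CPM, 48.0 to 136), CD4+ cells 3 UMIs and CD8+ cells 50 UMIs in 32 of 1531 cells. The ratio over CD4+ cells was 4.87 (1.39 to 26.1) and over CD8+ cells 14.8 (7.89 to 26.5). The former was 2.54 (0.672 to 14.2) in cells of at least 3000 UMIs and 3.93 (0.944 to 23.0) with 2 Foxp3 UMIs required, and both of these intervals include 1. After thinning, Rln3 was found in 32.99% of Foxp3+ cells of the sensitive library, 0.578% of CD4+ and 0.870% of CD8+ cells, and in 12.1%, 0 of 46 and 0.524% in the resistant library.

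Areg (amphiregin) was at 493 CPM (442 to 550) in the Foxp3+ cells of the sensitive library, at 37.9 CPM (26.5 to 52.4) in CD4+ and at 34.3 CPM (29.8 to 39.2) in CD8+ cells. For T cells resistant the 3 classes were at 179 CPM (124 to 249), 46.0 CPM (19.9 to 90.6) and 36.7 CPM (32.8 to 40.9). CD4+ and CD8+ cells had overlapping intervals in both libraries, and Foxp3+ cells lay above both. The ratio over CD4+ cells was 13.03 (9.22 to 18.9) and 3.88 (1.76 to 9.71), and over CD8+ cells 14.4 (12.1 to 17.2) and 4.87 (3.31 to 6.94). The resistant ratio over CD4+ cells was 1.602 (0.274 to 6.68) without the Foxp3+ cells that held CD8 transcripts and 1.55 (0.160 to 7.76) when Cd4 was required as well, and both intervals include 1.

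Areg was unevenly spread over cells. It was found in 35 of 100 Foxp3+ cells of the sensitive library and in 7 of 33 of the resistant library, and 1 cell of each held 81 of 329 and 16 of 34 UMIs. In the CD4+ class of the sensitive library 1 cell held 21 of the 36 Areg UMIs, and without the highest cell of each class the ratio of Foxp3+ over CD4+ cells was 23.8 (14.2 to 43.2). A single CD4+CD8+ cell of the sensitive library held 450 Areg UMIs, which is 98.7% of that class. Outside T cells, epithelial or cancer-like cells held 9.18% and 24.9% of the Areg UMIs, and macrophage or monocyte-like cells 4.31% and 20.5%. Neutrophil-like cells held 7.43% and 10.3%, at 328 CPM (272 to 392) and 165 CPM (133 to 203). In the resistant library their interval overlapped that of Foxp3+ cells, at 179 CPM (124 to 249).

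Ebi3 stood in Foxp3+ and CD4+ cells at 85.5 CPM (64.8 to 111) and 75.8 CPM (59.3 to 95.4) in the sensitive library and at 31.5 CPM (11.6 to 68.6) and 51.7 CPM (23.7 to 98.2) in the resistant library. The ratio between them was 1.13 (0.783 to 1.62) and 0.609 (0.178 to 1.92), and both intervals include 1. Without the Foxp3+ cells that held CD8 transcripts it was 1.72 (1.06 to 2.72) and 1.42 (0.248 to 5.71). CD8+ cells were at 2.76 and 3.85 CPM, and Foxp3+ cells exceeded them 31.0 times (17.8 to 56.8) and 8.18 times (2.81 to 19.7). Ebi3 was also found outside these classes, with 90.9 and 82.7 CPM in neutrophil-like and 65.4 and 42.2 CPM in dendritic-like cells. Macrophage or monocyte-like cells held 15.4% and 29.7% of its UMIs and neutrophil-like cells 9.97% and 21.5%, against 17.2% and 2.87% in Foxp3+ cells. Il12a, which encodes the subunit that pairs with Ebi3 in IL-35, had 0 UMIs in the Foxp3+ cells of both libraries.

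Il10 was the scarcest member. Foxp3+ cells of the sensitive library held 23 UMIs in 8 cells (34.5 CPM, 21.9 to 51.8), and CD4+ cells held 54 UMIs in 7 cells (56.8 CPM, 42.7 to 74.1), of which 20 were in 1 cell. None of these 54 UMIs lay in the cluster that held most Foxp3+ cells. The ratio of Foxp3+ over CD4+ cells was 0.607 (0.356 to 1.01), and over CD8+ cells 14.2 (7.08 to 29.2). The former was 0.681 (0.280 to 1.44) without the Foxp3+ cells that held CD8 transcripts and 1.29 (0.531 to 2.73) when Cd4 was required as well, so its direction was not settled. In the resistant library Il10 had 2 UMIs in 1 Foxp3+ cell, 0 in CD4+ cells and 5 in CD8+ cells, with a ratio of Foxp3+ over CD8+ cells of 18.6 (1.77 to 113). That 1 cell held both Cd4 and CD8 transcripts, and without it, or without the Foxp3+ cells with CD8 transcripts, the ratio was 0, so no direction can be read from it. In CD4+ cells Il10 was at least 3.295-fold higher in the sensitive than in the resistant library when set against a floor of 3 UMIs over the class, and the lower limit of the exact interval was 2.59.

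**Figure D1:**
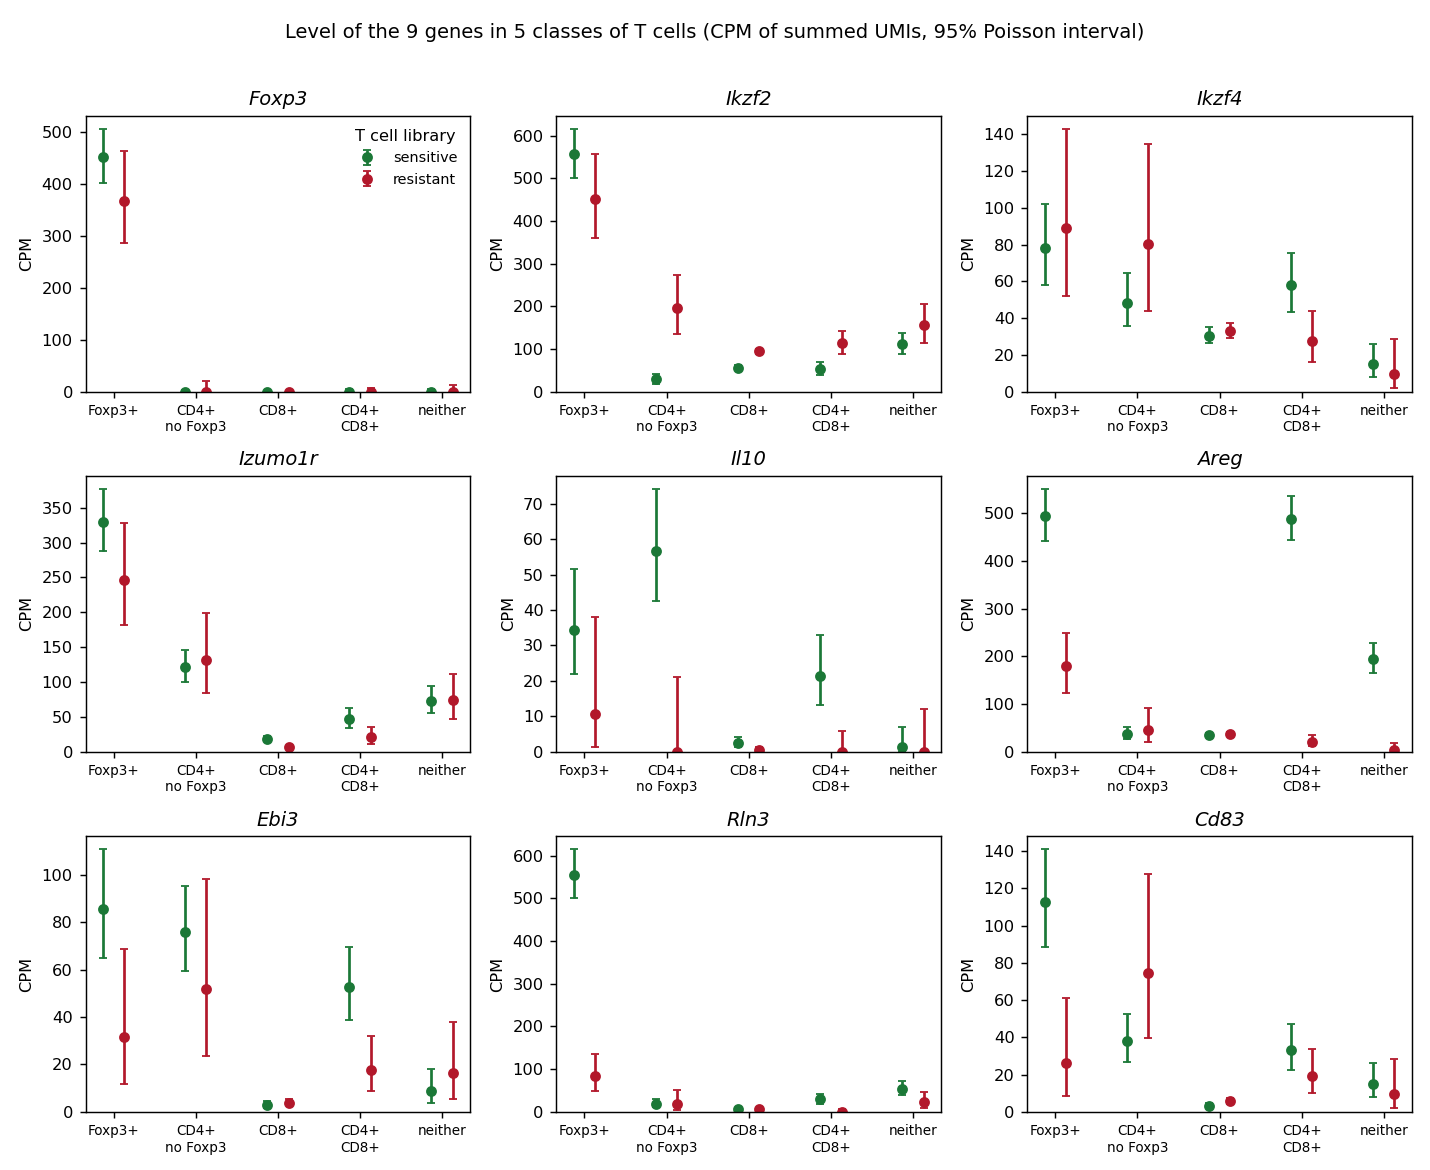
Level of each of the 9 genes in CPM (y axis, linear, scaled per panel) in 5 T cell classes (x axis) of the sensitive and the resistant library, with points for the summed UMIs of a class and bars for the exact 95% Poisson interval. Rln3 reaches 555 CPM in Foxp3+ cells of the sensitive and 84.0 CPM in those of the resistant library, whereas the Ikzf4 intervals of Foxp3+ and CD4+ cells overlap.

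**Figure D2:**
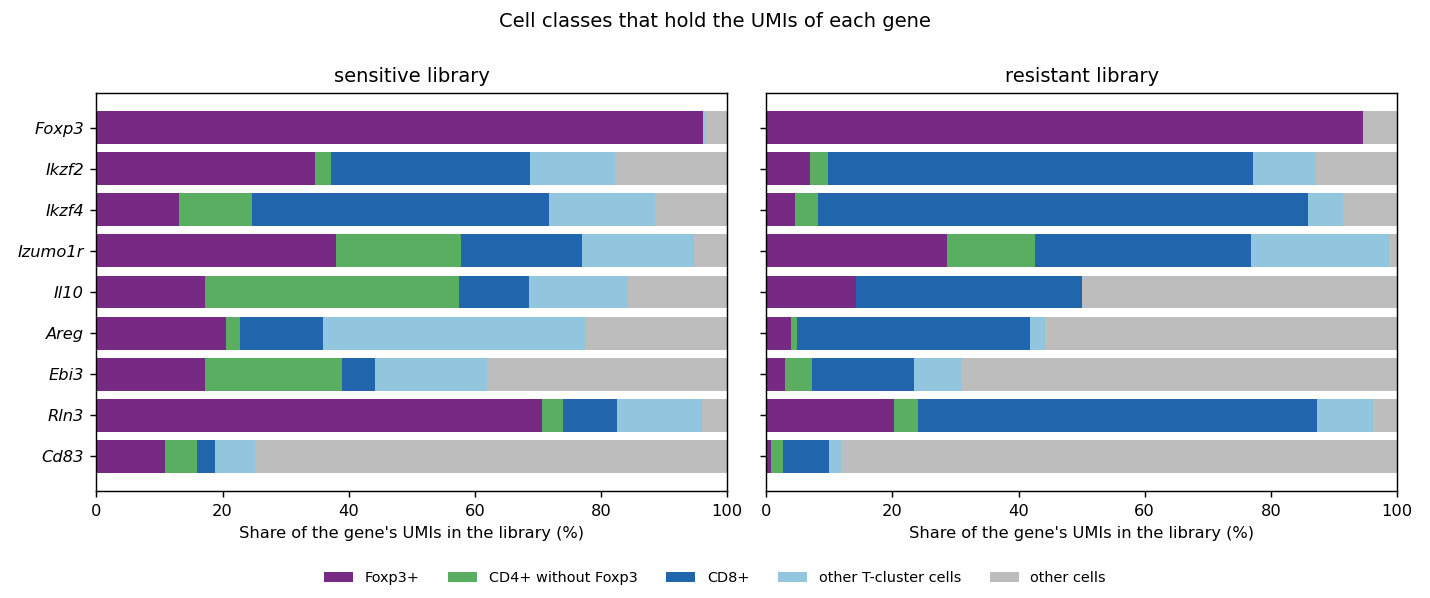
Share of each gene's UMIs in percent (x axis) held by Foxp3+ cells, CD4+ cells without Foxp3, CD8+ cells, other cells of T cell clusters, and all other cells, NK cell-like cells included, for the 9 genes (y axis) in each library. Foxp3+ cells hold 96.2% of Foxp3 and 70.6% of Rln3 UMIs in the sensitive library, and most Cd83 UMIs lie outside T cell clusters.

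The members were counted against all genes by 1 rule, a ratio of at least 2 whose interval excluded 1 among genes with at least 20 UMIs in the 2 classes together. A gene, member or not, could thus meet this UMI minimum through the class where it was high. Against CD4+ cells all 8 members other than Foxp3 met the UMI minimum in the sensitive library, and 5 of them (Ikzf2, Izumo1r, Areg, Rln3 and Cd83) passed, beside 6.69% of all 6949 genes that met it. In the resistant library 4 members met the minimum and 2 passed (Ikzf2 and Areg), beside 4.7% of 2513 genes. Without the Foxp3+ cells that held CD8 transcripts Areg did not pass, while Izumo1r did. Il10, Ebi3, Rln3 and Cd83 had too few UMIs in the resistant library. Against CD8+ cells 8 of 8 passed in the sensitive library, beside 5.65% of genes, and all 7 that met the minimum passed in the resistant library, beside 4.94%. The median ratio over all genes was 1.13 and 1.04 against CD4+ cells and 1.07 and 1.04 against CD8+ cells, and over the members that met the minimum it was 2.85 and 2.09, and 16.3 and 4.87.

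**Figure D3:**
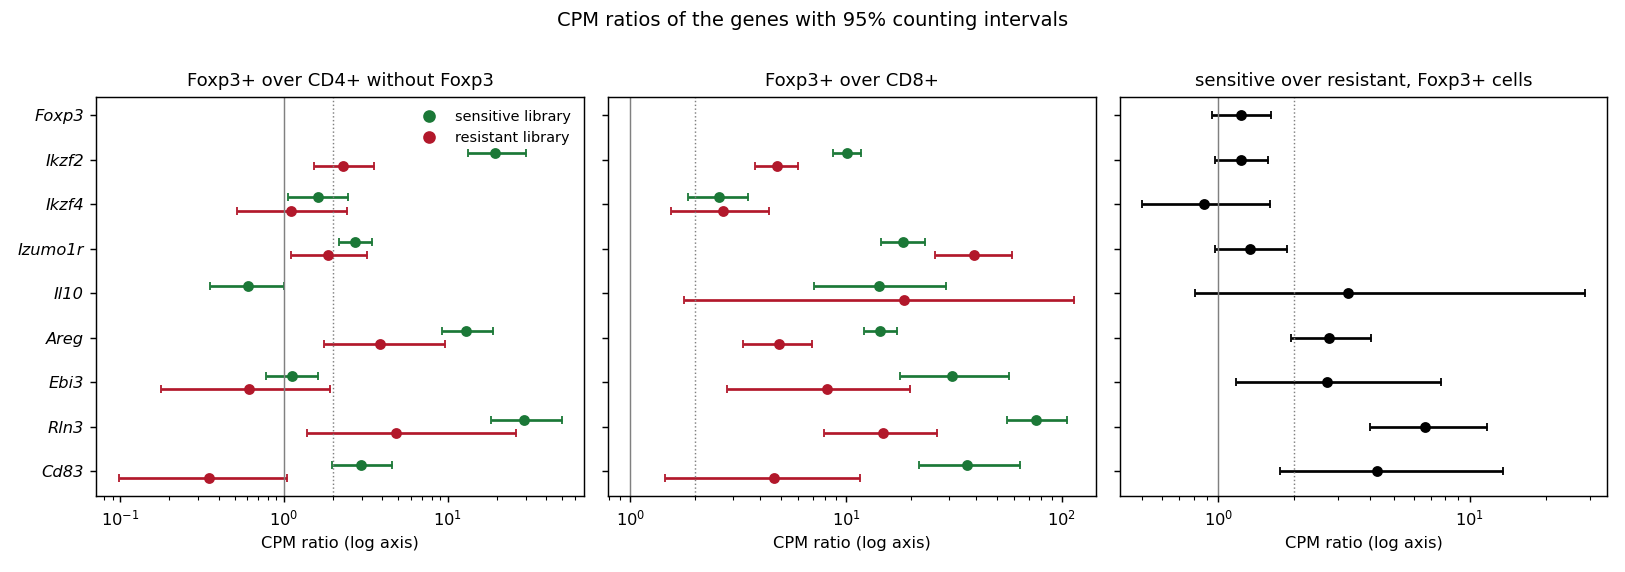
Ratio (log axis) of the level in Foxp3+ cells over CD4+ cells, over CD8+ cells, and of Foxp3+ cells of the sensitive over those of the resistant library, for each gene, with exact 95% intervals. Against CD4+ cells the ratios run from 0.607 (Il10) to 29.3 (Rln3) in the sensitive library, and against CD8+ cells those of the sensitive library lie at 2.57 or above.

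Within Foxp3+ cells the members were not evenly expressed. Among the 100 sensitive cells, the 24 highest held at least 50% of the Foxp3 UMIs and the 22 highest at least 50% of the Ikzf2 UMIs, whereas for Rln3 7 cells sufficed, for Cd83 5, for Areg 4 and for Il10 2. The 5 highest cells held 15.3% of Foxp3 UMIs, 17.8% of Ikzf2 UMIs, 43.5% of Rln3 UMIs and 59.9% of Areg UMIs. The spread of Foxp3 was set in part by the gate, since every cell had to hold its UMI, and is a description only. In the sensitive library a Foxp3+ cell held a median of 3.5 of the other 8 members, and in the resistant library 3. Rln3 was found together with Ikzf2 in 50 of its 53 cells in the sensitive library and in all 8 in the resistant library, while 91 of 100 and 27 of 33 Foxp3+ cells held Ikzf2 whatever their Rln3. Areg and Rln3 shared 23 cells in the sensitive library and 1 in the resistant library.

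**Figure D4:**
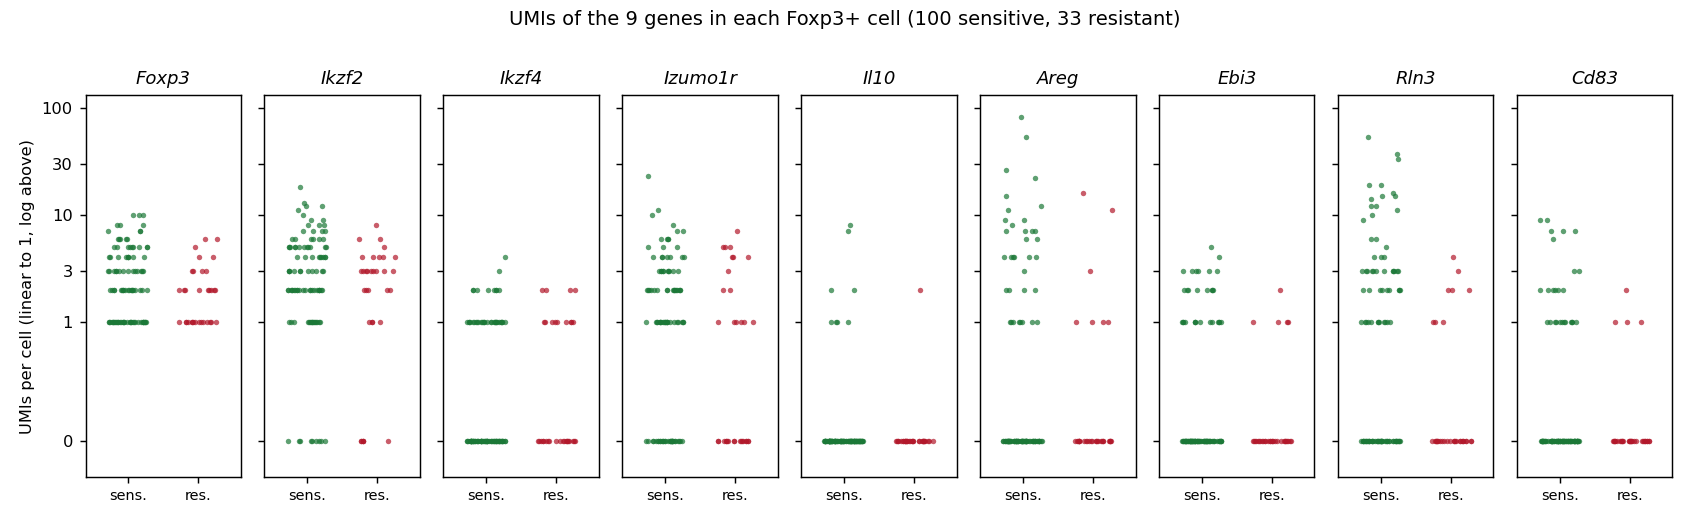
UMIs of each gene in every Foxp3+ cell (y axis, linear to 1 and logarithmic above), 1 point per cell, with the 100 sensitive cells beside the 33 resistant cells. Foxp3 counts reach 10, while single cells reach 81 UMIs for Areg and 53 for Rln3.

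The comparison of sensitive with resistant tumors was then made inside the Foxp3+ cells. Of the 8 members other than Foxp3, 4 passed the ratio of 2 (Areg, Ebi3, Rln3 and Cd83), beside 5.12% of the 5193 genes that met the minimum, and all 4 were higher in the sensitive library. The median ratio over all these genes was 1.11 (0.16 on the log2 scale). Rln3 had a ratio of 6.61 (4.01 to 11.7), Cd83 of 4.28 (1.76 to 13.6), Areg of 2.76 (1.94 to 4.06) and Ebi3 of 2.71 (1.17 to 7.70), an order that changed when the Foxp3+ cells with CD8 transcripts were left out.

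Ikzf2, Ikzf4 and Izumo1r did not reach that ratio. Ikzf2 gave 1.23 (0.972 to 1.58), Ikzf4 0.874 (0.497 to 1.61) and Izumo1r 1.34 (0.972 to 1.87), and all 3 intervals include 1. Il10 gave 3.29 (0.812 to 28.7) from 23 and 2 UMIs. In CD8+ cells the same contrast gave 1.29 (0.844 to 1.97) for Rln3, 0.935 (0.782 to 1.11) for Areg, 0.718 (0.376 to 1.32) for Ebi3, 0.919 (0.761 to 1.11) for Ikzf4, 0.545 (0.304 to 0.941) for Cd83 and 0.586 (0.515 to 0.666) for Ikzf2, and 4.31 (1.49 to 15.1) for Il10 and 2.84 for Izumo1r. In CD8+ cells of the sensitive library Cd83 and Ikzf2 were thus lower, and Il10, from 15 and 5 UMIs, and Izumo1r higher. Thinned shares of Foxp3+ cells were 32.99% (23.8 to 43.3) and 12.1% (3.40 to 28.2) for Rln3 and 21.6% (13.9 to 31.2) and 9.09% (1.92 to 24.3) for Areg. They were 12.4% (6.56 to 20.6) for Cd83 and 13.4% (7.33 to 21.8) for Ebi3 in the sensitive library and 3.03% (0.0767 to 15.8), which is 1 cell, for each in the resistant library, so the intervals overlapped for all 4 genes. The resistant library, whose Foxp3+ cells had a median of 5.33% mitochondrial UMIs against 2.39%, rests on 33 cells. The part of RNA quality was not tested.

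Foxp3+ cells with and without CD8 transcripts had separate intervals for 4 of the 8 members other than Foxp3 in the sensitive library and for none in the resistant library. The 47 sensitive cells without stood above the 53 cells with CD8 transcripts for Ikzf2 (934 and 387 CPM), Izumo1r (590 and 213 CPM), Areg (1059 and 239 CPM) and Cd83 (256 and 47.8 CPM), whereas Rln3 was at 648 and 513 CPM, with overlapping intervals. Foxp3 was at 653 and 361 CPM, a description only, since each cell needed 1 Foxp3 UMI, the median was 2 UMIs per cell in both sets and the cells without CD8 transcripts were shallower. Ikzf2 also had a median of 3 UMIs per cell in both sets, Izumo1r of 2 without and 1 with CD8 transcripts, and Areg and Cd83 of 0 in both. The part of depth in these CPM differences was not tested. Among resistant cells Ikzf2 was at 638 CPM in the 11 cells without and 401 CPM in the 22 cells with CD8 transcripts, and Areg was at 73.7 CPM (3 UMIs) and 207 CPM. Prf1, which encodes the pore-forming protein perforin of cytotoxic cells, had 0 UMIs in the cells without CD8 transcripts in both libraries and 133 and 29 UMIs in those with them.

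Leaving out the Foxp3+ cells with CD8 transcripts was an alternative chosen after the data were seen. Against CD4+ cells of the sensitive library it gave ratios of 32.9 (21.9 to 51.2) for Ikzf2, 2.30 (1.33 to 3.87) for Ikzf4, 4.88 (3.75 to 6.35) for Izumo1r, 27.96 (19.6 to 41.0) for Areg and 6.77 (4.35 to 10.6) for Cd83, each above the ratio in all Foxp3+ cells. The cells that remained were shallower, and the part of depth was not tested. The resistant library moved up for Izumo1r, to 3.16 (1.58 to 6.18), for Rln3, to 9.97 (2.28 to 59.7), and also for Ikzf2, Ikzf4, Ebi3 and Cd83. Areg instead fell to ratios whose intervals include 1, over CD4+ cells as given and over CD8+ cells at 2.01 (0.412 to 5.92).

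Without these cells, 2 of the 8 members other than Foxp3 passed between sensitive and resistant in place of 4, and Areg, at 14.4 (4.86 to 70.3), stood above Rln3, at 3.77 (1.78 to 9.56). Ebi3 gave 1.77 (0.546 to 9.13) and Cd83 2.61 (0.961 to 9.93). With a mitochondrial limit of 20%, Areg moved to 1.45 (1.13 to 1.87), with 49 Foxp3+ cells in the resistant library.

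**Figure D5:**
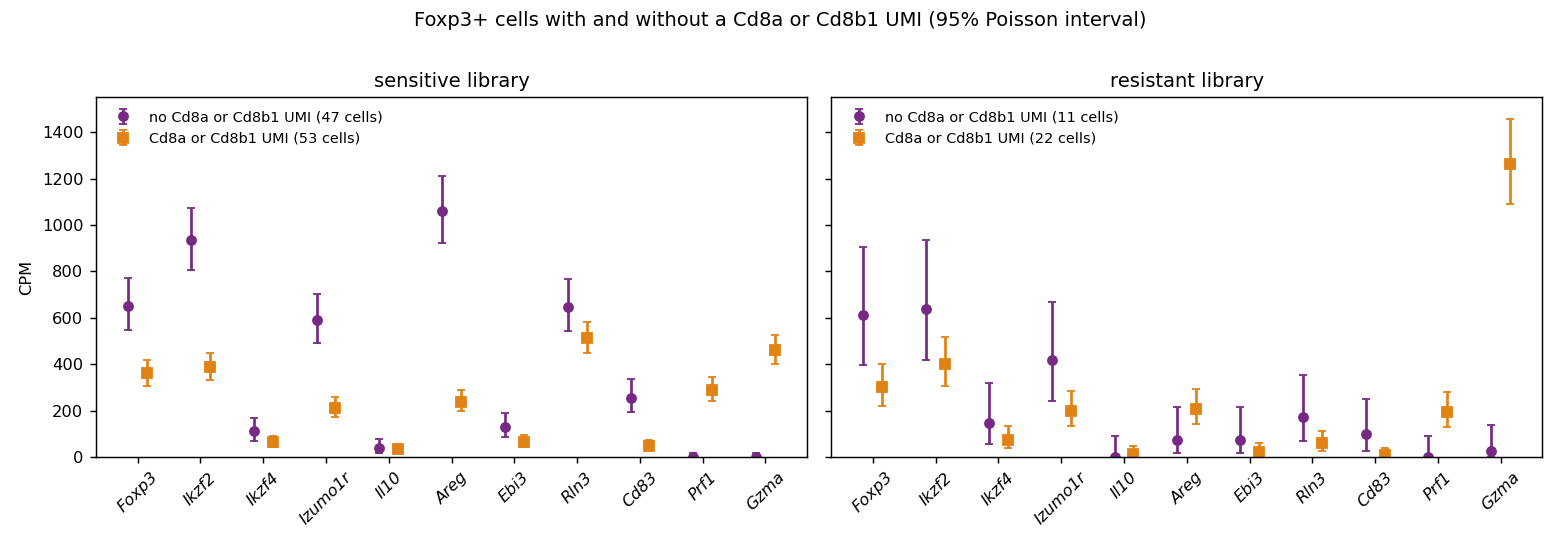
Level in CPM (y axis) of the 9 genes and of the cytotoxic genes Prf1 and Gzma in Foxp3+ cells without and with a Cd8a or Cd8b1 UMI, in each library, with exact 95% Poisson intervals. Ikzf2 in the sensitive library stands at 934 CPM without and 387 CPM with CD8 transcripts, and Prf1 is at 0 in the cells without them.

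A list of 68 other genes of regulatory and helper T cells was read in the same cells. Against CD4+ cells of the sensitive library, 16 of the 60 that met the minimum passed upward, beside 6.69% of all genes, and 8 passed downward (a ratio of at most 0.5), beside 3.42%. In the resistant library 6 of 41 passed upward, beside 4.7%, and 8 downward, beside 2.94%. Against CD8+ cells 31 of 59 and 22 of 54 passed upward, beside 5.65% and 4.94%, and 3 and 1 downward, beside 2.15% and 1.35%. Between sensitive and resistant Foxp3+ cells 13 of 56 passed upward, beside 5.12%, and 1 downward, beside 1.77%. The group counts against CD4+ cells that follow are to be read against the same 6.69% and 4.7% upward and 3.42% and 2.94% downward.

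By group, 5 of 18 receptors (sensitive) and 3 of 16 (resistant) passed upward against CD4+ cells. Those that passed, named after their values were seen, were Tnfrsf1b, Tigit, Klrg1, Il1rl1 and Cd27 in the sensitive library and Il2ra, Lag3 and Cd27 in the resistant library. Nrp1 (neuropilin-1) passed downward in the sensitive library, at 0.410 (0.233 to 0.692), and was the 1 list gene that passed downward between sensitive and resistant Foxp3+ cells, at 0.418 (0.196 to 0.920). The receptors with most UMIs did not pass. Tnfrsf4 (OX40), a costimulatory receptor, had a ratio of 1.70 (1.54 to 1.88) and 1.48 (1.13 to 1.94), Ctla4, an inhibitory receptor, 1.52 (1.36 to 1.69) and 1.56 (1.13 to 2.15), and Tnfrsf9 (4-1BB) 1.65 (1.49 to 1.83) and 0.924 (0.681 to 1.25). Against CD8+ cells Tnfrsf4 reached 17.0 (15.2 to 19.0) and 14.7 (12.1 to 17.7). Hence Tnfrsf4 separated Foxp3+ cells from CD8+ cells far more than from CD4+ cells.

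Of the trafficking genes 5 of 10 passed upward against CD4+ cells in the sensitive library and 1 of 6 in the resistant library, where 1 (Ccr8) passed downward. The chemokine receptor Ccr8 gave 0.861 (0.720 to 1.03) and 0.494 (0.272 to 0.873), Ccr7 gave 1.08 (0.853 to 1.36) and 0.639 (0.380 to 1.06), and Cxcr6 gave 0.942 (0.820 to 1.08) and 0.740 (0.558 to 0.9801). Between the libraries Ccr8 in Foxp3+ cells was 2.90 times higher (1.83 to 4.85) in the sensitive one.

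The other transcription factors gave 3 of 15 and 1 of 9 upward calls against CD4+ cells and none downward. A single call, here or in another group, is too few to set against the share over all genes. Ikzf3 (Aiolos), a further Ikaros factor, had ratios of 5.26 (3.53 to 8.03) and 2.41 (1.17 to 5.34). Gata3, a factor of type 2 helper cells that regulatory T cells also use, gave 0.691 (0.568 to 0.838) and 0.711 (0.382 to 1.30), and Batf, an AP-1 family factor, 0.770 (0.637 to 0.927) and 0.843 (0.352 to 2.005). Between sensitive and resistant Foxp3+ cells Batf gave 4.19 (2.34 to 8.26) and Gata3 2.15 (1.36 to 3.57).

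Of the suppressive molecules 3 of 10 passed upward and 2 downward in the sensitive library, and 1 of 6 and 3 in the resistant library. Gzmb (granzyme B) had ratios over CD4+ cells of 18.8 (13.9 to 26.1) and 3.11 (1.72 to 5.95). Of its 595 and 51 UMIs in Foxp3+ cells, 550 and 49 lay in the cells with CD8 transcripts. Penk (proenkephalin) lay lower in Foxp3+ than in CD4+ cells, at 0.323 (0.292 to 0.357) and 0.0330 (0.0156 to 0.0616), and Lgals1 (galectin-1) gave 0.658 (0.616 to 0.703) and 0.716 (0.604 to 0.849). Helper cytokines passed downward in 5 of 7 and 4 of 4 cases, and the former were Il4, Il5, Il13, Cd40lg and Tnf, named after their values were seen. A cytokine gene scarce in Foxp3+ cells could meet the UMI minimum only through CD4+ cells, so such calls are a description. In Foxp3+ and CD4+ cells of the sensitive library Il5 had 0 and 561 UMIs, Il13 1 and 2121, and Tnf 32 and 121. Tnf gave 0.377 (0.247 to 0.561) and 0.206 (0.0767 to 0.477), Ifng 1.80 (1.41 to 2.29) and 0.157 (0.107 to 0.224), and Il21 1.68 (0.918 to 3.12) in the sensitive library with 0 UMIs in both classes of the resistant library.

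Across all genes with at least 20 UMIs in the Foxp3+ cells of each library, 1265 were ranked by their ratio over CD4+ cells, taking for each gene with the same direction in both libraries the ratio nearer to 1. The minimum was set on Foxp3+ cells alone, so a gene could enter through a high level there and genes scarce in Foxp3+ cells could not be among the lowest. The ranking is a description. The 10 highest were Cd8b1, Cd8a, Itgae, Klrc2, Hopx, Prf1, Gzma, Cd27, Bmyc and Glrx. Cd8b1 and Cd8a were set by the gate, since the CD4+ class excluded both. Itgae, the integrin chain CD103 of tissue-resident T cells, had ratios of 7.92 (4.76 to 13.9) and 32.9 (5.54 to 1335), the second from 36 UMIs against 1, and Hopx, a homeodomain protein, 8.34 (5.16 to 14.2) and 6.85 (2.41 to 26.8). Cd27, a costimulatory receptor, had ratios of 5.50 (3.60 to 8.66) and 6.85 (2.41 to 26.8). Itgae and Hopx were also present in Foxp3+ cells without CD8 transcripts, at 164 and 193 CPM in the sensitive library and 294.7 and 221 CPM in the resistant library.

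Others of these genes lay in the cells with CD8 transcripts. Klrc2, an NK cell receptor gene, had 34 of its 36 UMIs of the sensitive and all 28 of the resistant library there. The 212 Gzma UMIs of the sensitive library lay in 5 cells. The 5 lowest were Cd4, set by the gate, with Ifitm2 at 0.216 (0.190 to 0.245) and 0.431 (0.329 to 0.561), the chemokine gene Ccl3 at 0.436 (0.376 to 0.504) and 0.418 (0.266 to 0.643), Cd82 at 0.497 (0.422 to 0.584) and 0.378 (0.258 to 0.544), and Itgb1 at 0.523 (0.388 to 0.699) and 0.508 (0.314 to 0.807).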

How the data were processed

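Single-cell RNA-seq counts of 2 T cell libraries (10x 3′ chemistry) were analysed. The deposited values are raw UMI counts per gene and cell, which the authors made with Cell Ranger against mm10, per the labels and methods; versions and the strand setting are not given in the sources used here. The members and lists were chosen with earlier results of these data known. Barcodes needed 500 or more genes, with mitochondrial UMIs at or under 10%, and Scrublet's putative doublets (112 sensitive, 159 resistant) were removed. Total UMIs of all barcodes were 31690845 and 35908799. The kept cells of both libraries were clustered with scanpy 1.11.5 and Leiden (2000 variable genes, 30 components, 15 neighbours, resolution 1). T cell clusters were those in which at least 50% of cells held a Cd3d, Cd3e or Cd3g UMI and whose best fixed marker list was T or NK cell, a naming rule set after the clusters were seen; the NK cell cluster fell short of that share. CD4+ cells had Cd4 and neither Cd8a, Cd8b1 nor Foxp3, and CD8+ cells had Cd8a or Cd8b1 and neither Cd4 nor Foxp3.

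Counts were summed per class and library and divided by the class total, giving CPM. Ratios carry exact conditional intervals (scipy 1.17.1). No test across samples was possible with 1 library per group, so no p-value is given. Shares of cells with a UMI were thinned to 1000 UMIs. The ratio script was tested on simulated data. Named genes were the members, the 3 genes of each list group with most UMIs in Foxp3+ cells, and among genes with the same direction in both libraries, the 10 highest and 5 lowest by the ratio over CD4+ cells nearer to 1, without receptor segment, ribosomal, mitochondrial and model genes. Alternatives varied the Foxp3 gate, T cell definition, cell filters, doublet removal, depth, summation, scaling and ratio threshold. The whole-tumor libraries hold too few T cells for these classes and enter only the closing section.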

Additional observations from a re-analysis of the deposited data

Results flagged for a closer look

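Of the members, Cd83 and Ebi3 had ratios of Foxp3+ over CD4+ cells on opposite sides of 1 in the 2 libraries. Cd83 gave 2.97 (sensitive) and 0.351 (resistant), and Ebi3 gave 1.13 and 0.609. Among the list genes used as examples the same held for Tnfrsf9 (1.65 and 0.924), Ccr7 (1.08 and 0.639) and Ifng (1.80 and 0.157). Without the Foxp3+ cells that held CD8 transcripts Cd83 gave 6.77 and 1.31 and Ebi3 1.72 and 1.42, on the same side of 1 in both libraries. For Ebi3 this also held with the mean of CPM over cells, at 1.47 and 1.81, and with scaling by the median gene ratio the sensitive value was 0.997. These differences between libraries were not tested, since each group has 1 library, and the resistant ratios rest on 33 Foxp3+ and 46 CD4+ cells.

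In the whole-tumor libraries, which the comparisons above do not use, Cd83 was higher in the tumor whose title says resistant than in the saline control, with 53 against 26 UMIs and a ratio of 1.94 (1.19 to 3.23). Another label of that sample names it sensitive, so its response group is uncertain. The tumor labelled sensitive throughout gave 1.65 (0.799 to 3.29).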

How the results depend on the processing

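Ratios of single members had 437 values under the alternatives, of which 385 stayed within the interval first given. Of 330 values of the 30 ratios whose interval excluded 1, 327 stayed on the same side of 1, and of 107 values of ratios whose interval included 1, 7 crossed it. The 3 exceptions were the ratio of Il10 in Foxp3+ over CD8+ cells of the resistant library, which fell to 0 with Foxp3+ cells restricted to Cd4 without CD8 transcripts, without the cell with most UMIs, and without cells with CD8 transcripts, because the gene rested on 1 cell. The count of members above CD4+ cells in the resistant library went from 2 to 4 with a mitochondrial limit of 20% and to 1 in cells of at least 3000 UMIs. The count between sensitive and resistant went from 4 to 2 with either CD8 restriction. The ratio of Foxp3+ shares went from 4.28 to 10.5 with 2 Foxp3 UMIs required, and to 1.90 (0.173 to 21.0) with Cd4 required and CD8 transcripts excluded. Other causes were not tested. Removing Foxp3+ cells with CD8 transcripts was added after the data were seen. Counts of 2 to 16 UMIs limit Il10, Cd83, Ebi3 and Rln3 in the resistant library. No paired analysis was possible because each group has 1 library.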

Other observations

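In the whole-tumor libraries, with 488 cells of the saline control, 269 of the tumor labelled sensitive and 263 of the tumor titled resistant, Foxp3 had 5, 1 and 3 UMIs and Rln3 1, 0 and 4 UMIs. Areg had 76, 20 and 87 UMIs and Ebi3 37, 17 and 27. The cells with Cd3e numbered 41, 1 and 11, so the members could not be read by T cell class there. Another label of the last sample names it sensitive, so these counts are given by title.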
